A study of Mus musculus with 18 samples.

Results

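The nuclear receptor superfamily was followed in the livers of mice on 3 diets, through 36 receptor genes named by symbol, with the clock receptors Nr1d1 and Nr1d2 kept apart. Each gene was read by its brightest probe set among those paired with that symbol alone on the Mouse430_2 array. Of the 36 genes, 35 had such a probe set and 32 were bright enough to be tested, out of 18193 and 13645 genes in all. The remaining 4 were Nr1h2 (LXR-beta), which no probe set read alone, and Vdr, Hnf4g and Nr4a3, whose signals fell under the limit for dim genes. The control, western and quercetin groups each held arrays of 6 male C57BL/6J mice that arrived at an age of 5 weeks, spent a week on ordinary chow and were then fed their diet for 20 weeks. Control mice ate AIN93G, a purified rodent diet. In the Western-style diet fat supplied 39.9% and sucrose 34.0% of the energy, with 20% butter, 1% soy oil and 0.15% cholesterol among its ingredients. Mice of the quercetin group ate that Western-style diet with 0.05% quercetin, a plant flavonol. The labels give 1 mouse per array and 3 mice per cage, without saying which mice shared a cage.

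Nuclear receptors are transcription factors that are switched by small fat-soluble ligands such as fatty acids, oxysterols, bile acids, retinoids, thyroid hormone and steroids. Many of them bind DNA as a pair with a retinoid X receptor, on repeats of a short half-site, and then exchange corepressor for coactivator proteins when ligand arrives. In liver they set fat oxidation and storage, cholesterol disposal, bile acid synthesis and the clearance of drugs. Their activity depends mainly on ligand, so the amount of a receptor's transcript is a separate quantity from the activity of the receptor, and only the transcript was measured here.

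Of the receptors, Pparg and Nr5a2 were the ones whose transcripts changed in the feeding comparisons, and their promoter sequences are shown for that reason. RefSeq lists 3 starts for Pparg and 2 for Nr5a2. The 250 bases before a start are printed 5′ to 3′ on the strand of the gene for the starts that hold the half-site AGGTCA, which is in capitals.
Pparg start 1, GRCm38.p6 chr6:115360894-115361143, plus strand: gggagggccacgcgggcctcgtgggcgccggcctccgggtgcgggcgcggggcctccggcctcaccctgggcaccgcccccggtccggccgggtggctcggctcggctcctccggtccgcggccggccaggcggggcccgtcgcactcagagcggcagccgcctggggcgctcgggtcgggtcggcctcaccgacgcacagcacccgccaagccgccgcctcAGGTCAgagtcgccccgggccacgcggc
Pparg start 2, GRCm38.p6 chr6:115362099-115362348, plus strand: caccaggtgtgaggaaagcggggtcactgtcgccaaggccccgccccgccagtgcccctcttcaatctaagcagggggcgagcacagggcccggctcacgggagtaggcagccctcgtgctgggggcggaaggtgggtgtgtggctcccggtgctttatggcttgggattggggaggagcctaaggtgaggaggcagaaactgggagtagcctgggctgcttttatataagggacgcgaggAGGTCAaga
Nr5a2 start 1, GRCm38.p6 chr1:136960449-136960698, minus strand: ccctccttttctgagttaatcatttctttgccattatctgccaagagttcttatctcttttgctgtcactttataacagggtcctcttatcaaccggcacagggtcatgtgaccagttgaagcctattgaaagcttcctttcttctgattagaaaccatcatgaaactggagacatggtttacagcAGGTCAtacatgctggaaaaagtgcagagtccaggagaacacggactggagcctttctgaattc
The half-site began 28 and 9 bases before the first and second start of Pparg and 64 bases before the first start of Nr5a2. It was not found on either strand before the third start of Pparg or the second start of Nr5a2. Searched on both strands, AGGTCA stood in 14% of all 32851 promoters of that length (4607) and in 9 of the 52 promoters of the receptor genes (17.3%), which belonged to 8 of the 33 genes with an entry. Besides Pparg and Nr5a2 these were Nr1h4, Nr6a1, Rarg, Rxra, Rxrg and Thrb. The direct repeat AGGTCANAGGTCA was in 11 of all promoters (0.0335%) and in 0 of those of the receptors, and CAAGGTCA, which contains the half-site, was in 438 (1.33%) and in 0. A match describes letters in a window and shows no binding.

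Levels are given as log2(intensity + 16) after quantile normalization between arrays, and folds as ratios of intensity + 16. A probe set's brightness depends on its own probes, so levels are compared between diets and never between genes. The arrays of control mice 4 and 5 differed from each other by far less than any other 2 arrays (SD of the log2 difference 0.0461 over 2642 bright probe sets, with 0.152 for the next closest of 153 pairs) and were counted as 1 sample, so n was 5, 6 and 6. Trimmed mean intensities before normalization were 67.2 to 81.3 in the control, 80.7 to 102 in the western and 82.9 to 96 in the quercetin arrays. Hepatocyte markers were bright on every array, with a summed intensity of 63200 to 67100 over 9 genes. With limma 0 of these 9 differed between the western and control groups at an adjusted p under 0.05, and 3 had an unadjusted p under 0.05, while 1 passed without control 4-5 or western mouse 2 or 6. Markers of other cell types moved with the Western-style diet. Of the 14 markers of macrophages, Kupffer cells included, 7 rose and 0 fell, beside 5.49% of all genes higher and 3.16% lower. The other 7 did not pass. Among them, named after their values were seen, were Clec4f (0.40), Vsig4 (0.56), Marco (-0.83) and Timd4 (-0.40). The summed intensity of the 14 was 4240 to 5160 in the control, 6440 to 11200 in the western and 5170 to 14300 in the quercetin group. Of 11 stellate cell and fibroblast markers 6 rose and 0 fell, with sums of 3040 to 3330, 3910 to 5600 and 3790 to 6250. Of the adipocyte markers Adipoq and Lep were under the limit for dim genes, and Retn, just above it, differed by -0.24 in the western and 0.11 in the quercetin group against control (adjusted p = 0.535 and 0.817). The calls in these marker lists were all higher as well on the intensities as deposited and with array medians centred, with 11 and 8 macrophage markers and 9 and 7 stellate cell markers in the western comparison. Of the hepatocyte markers 1 was higher as deposited and 1 lower with array medians centred. In whole liver, fewer cells of a type and less RNA per cell cannot be told apart. The part of these cell types in the receptor results was not tested.

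On the Western-style diet Pparg rose and Nr5a2 fell against the control diet, which made 2 of 32 receptors changed (6.25%), beside 8.65% of all genes tested (1180 of 13645; limma, Benjamini-Hochberg adjusted p under 0.05), of which 5.49% were higher and 3.16% lower in the western group. The other 30 receptors did not pass. Before adjustment 11 of 32 receptors had a p under 0.05 (34.4%), against 23.3% of all genes. The differences of the receptors were small, with a median size of 0.18 on the log2 scale against 0.13 for all genes, and their 95% intervals reached a median of 0.28 to either side. Most receptors lay lower on the Western-style diet: 22 of 32 had a negative sign (68.8%, beside 53% of all genes) and the median difference was -0.15, against -0.01 for all genes. That direction depended on the scaling. Without normalization the typical gene read 0.22 higher in the western than in the control group, 8 of 32 receptors had a negative sign and 6 receptors passed (Pparg, Rara, Rarb, Nr3c2, Nr2f1 and Nr2f2), all of them higher. Relative to the median of all genes, 22 of 32 receptors lay below it both there and after quantile normalization. The balance of all calls moved in the same way, from 749 higher and 431 lower to 3641 and 84 as deposited, and to 1108 and 176 with array medians centred. Counts of target and partner genes below are to be read beside those of all 13645 genes under the same scaling.

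Western-fed mice that also received quercetin had the same 2 receptors called against the control diet (6.25%, beside 5.41% of all genes, 738 of 13645, with 3.43% higher and 1.98% lower). These comparisons share the control samples. Both receptors lay fully apart from control there, as did 4.65% of all genes. Of 32 receptors 22 had a negative sign (68.8%, beside 53.6% of all genes), and 9 on the intensities as deposited. Before adjustment 9 of 32 receptors had a p under 0.05 (28.1%, against 19.9% of all genes). All genes called there were 468 higher and 270 lower, and 3197 and 58 as deposited, or 575 and 104 with array medians centred. Quercetin within the Western-style diet changed 0 of 32 receptors and 0% of all genes tested by limma. Before adjustment 1 receptor, Thrb, had a p under 0.05 (3.12%), against 2.87% of all genes (392). The differences of the 32 receptors ran from -0.18 to 0.31 around a median of -0.01, with 95% intervals reaching a median of 0.27 to either side, so a change of that size in a typical receptor could not be told from 0 even before adjustment.

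**Figure D1:**
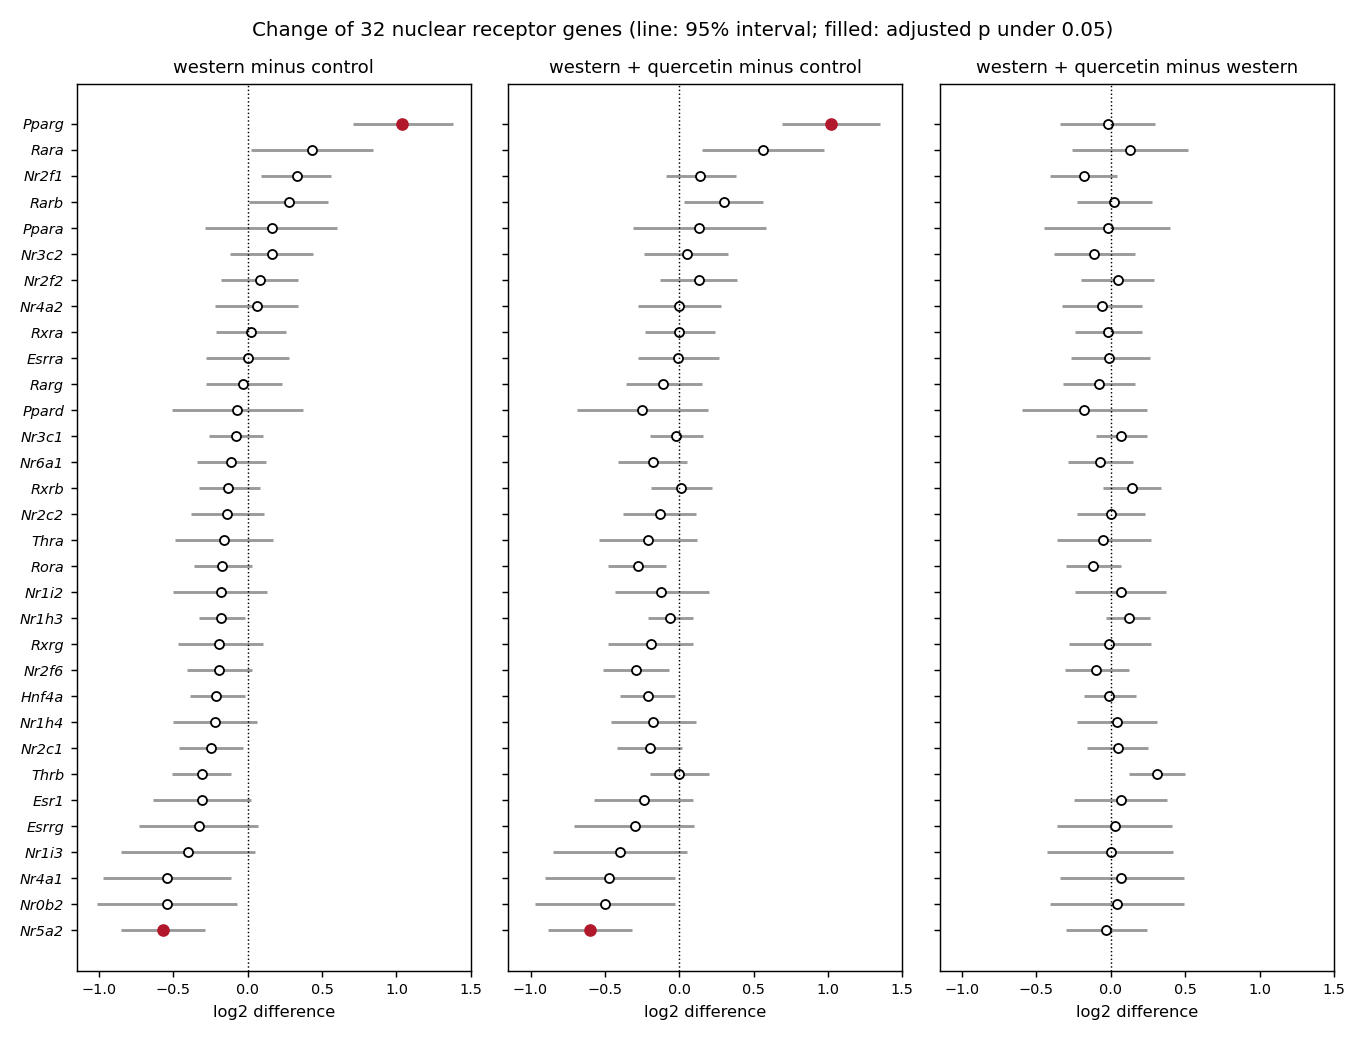
Log2 difference of each of the 32 tested receptor genes (points) with its 95% interval (lines) for western minus control, western with quercetin minus control, and western with quercetin minus western, ordered by the first. Pparg at 1.04 and 1.02 and Nr5a2 at -0.57 and -0.60 are filled as passing an adjusted p of 0.05, and no point is filled in the comparison of quercetin within the Western-style diet.

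Among the fatty acid sensors, Pparg rose about 2-fold on both Western-style diets while Ppara and Ppard did not pass. Pparg (PPAR-gamma) drives fat storage and is best known from adipose tissue. The 5 control samples read 5.88, 6.37, 6.12, 6.46 and 6.08, a mean of 6.18 ± 0.24 (SD, n = 5). Western livers ran from 6.91 over a median of 7.23 to 7.46, with a mean of 7.23 ± 0.22 (SD, n = 6). Quercetin livers ran from 6.86 over 7.07 to 7.78, with a mean of 7.20 ± 0.36 (SD, n = 6). Every mouse on a Western-style diet lay above every control mouse, and the western and quercetin groups overlapped over most of their range. As deposited, the intensities were 38.1 to 64.5 in the control, 105 to 178 in the western and 114 to 201 in the quercetin group. Pparg was higher by 1.04 ± 0.16 (SE) in western than in control livers, with a 95% interval of 0.71 to 1.38, a 2.06-fold difference (adjusted p = 0.000764). With quercetin the difference from control was 1.02 ± 0.16 (SE), or 2.03-fold (adjusted p = 0.00148). Quercetin livers differed from western livers by -0.02, with an interval of -0.34 to 0.30. Pparg was the receptor, 1 of 32 (3.12%), whose western and control groups did not overlap, beside 6.9% of all genes. Leaving out each sample in turn gave 0.97 to 1.11 for western against control, with adjusted p from 0.000965 to 0.00297. The call was lost among samples numbered 1 to 3 alone (0.92, adjusted p = 0.0974) and, for quercetin against control, among samples numbered 4 to 6 alone (0.90, adjusted p = 0.0838).

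Pparg was read by a single probe set, and in the same livers the adipocyte markers Adipoq and Lep were dim while 7 of 14 macrophage markers rose, as given above. Of the PPAR-gamma target list 3 genes were not tested, Adipoq and Aqp7 as dim and Plin1 for want of a probe set of its own. All 7 tested genes rose in the western and in the quercetin group against control, beside 5.49% and 3.43% of all genes higher, and the median differences were 1.74 and 1.58. The list was drawn up with earlier results of these data known, so its share is no independent support. Cidea and Cidec, which encode proteins that fuse lipid droplets, rose 25.9-fold and 8.63-fold on the Western-style diet. Fabp4, a fatty acid carrier of adipocytes and macrophages, rose 3.33-fold (adjusted p = 0.000348), and Mogat1, an acyltransferase of triglyceride synthesis, rose 2.06-fold. The other members, named after their values were seen, were Lpl (1.93 on the log2 scale), Plin4 (1.26) and Cd36 (0.83). Several of these genes, Lpl and Cd36 among them, are also made by macrophages. All 7 also passed on the intensities as deposited and with array medians centred. Within the Western-style diet quercetin left differences of -0.32 to 0.02 in this list, and by limma 0 of 7 passed before or after adjustment.

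Ppara (PPAR-alpha), which switches on fatty acid oxidation in fasting liver, had a mean of 10.20 ± 0.54 (SD, n = 5) in the control, 10.35 ± 0.24 (SD, n = 6) in the western and 10.33 ± 0.36 (SD, n = 6) in the quercetin group. Its western difference of 0.16 had an interval of -0.29 to 0.60, and the control mice alone spanned 9.48 to 10.84. Ppard (PPAR-delta), a broadly expressed relative with means of 5.32 ± 0.35 (SD, n = 5), 5.25 ± 0.50 and 5.07 ± 0.24 (SD, n = 6 each), differed by -0.07 (interval -0.51 to 0.37) and was 0.13 on the intensities as deposited. Of 14 PPAR-alpha targets tested, 5 rose, 1 fell and 8 did not pass on the Western-style diet, with a median of 0.19, beside 5.49% of all genes higher and 3.16% lower. Acaa1b and Ehhadh, of peroxisomal oxidation, rose 1.21-fold and 1.31-fold (adjusted p = 0.0131 and 0.0143), and Vnn1, a pantetheinase, rose 1.30-fold. Cyp4a14, an omega-hydroxylase of fatty acids, was 1.51-fold lower (adjusted p = 0.0314), a call that was lost on the intensities as deposited (adjusted p = 0.0894) and with array medians centred (0.0533). Pdk4, a kinase that spares glucose, rose 1.88-fold and Plin2, a lipid droplet coat protein, 1.26-fold. Acaa1b and Plin2 did not pass with array medians centred (adjusted p = 0.206 and 0.0652). Plin2 kept its call without western mouse 2 and lost it without any other single sample. Pdk4 lost it without control 3, 4-5 or 6 or western mouse 1, 3, 4 or 5, Cyp4a14 without control 1, 2 or 4-5 or western mouse 3, 4 or 5, and Vnn1 without control 3. Between 3 and 6 targets passed in the western comparison when single samples were left out (3 without control 3, control 4-5 or western mouse 3, 4 or 5). In the quercetin group 3 of 14 rose against control and 0 fell, while 5 rose as deposited and 0 passed with array medians centred. Beside these, 3.43% of all genes were higher, and 3197 of 13645 as deposited. Within the Western-style diet 0 of 14 passed before or after adjustment by limma.

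**Figure D2:**
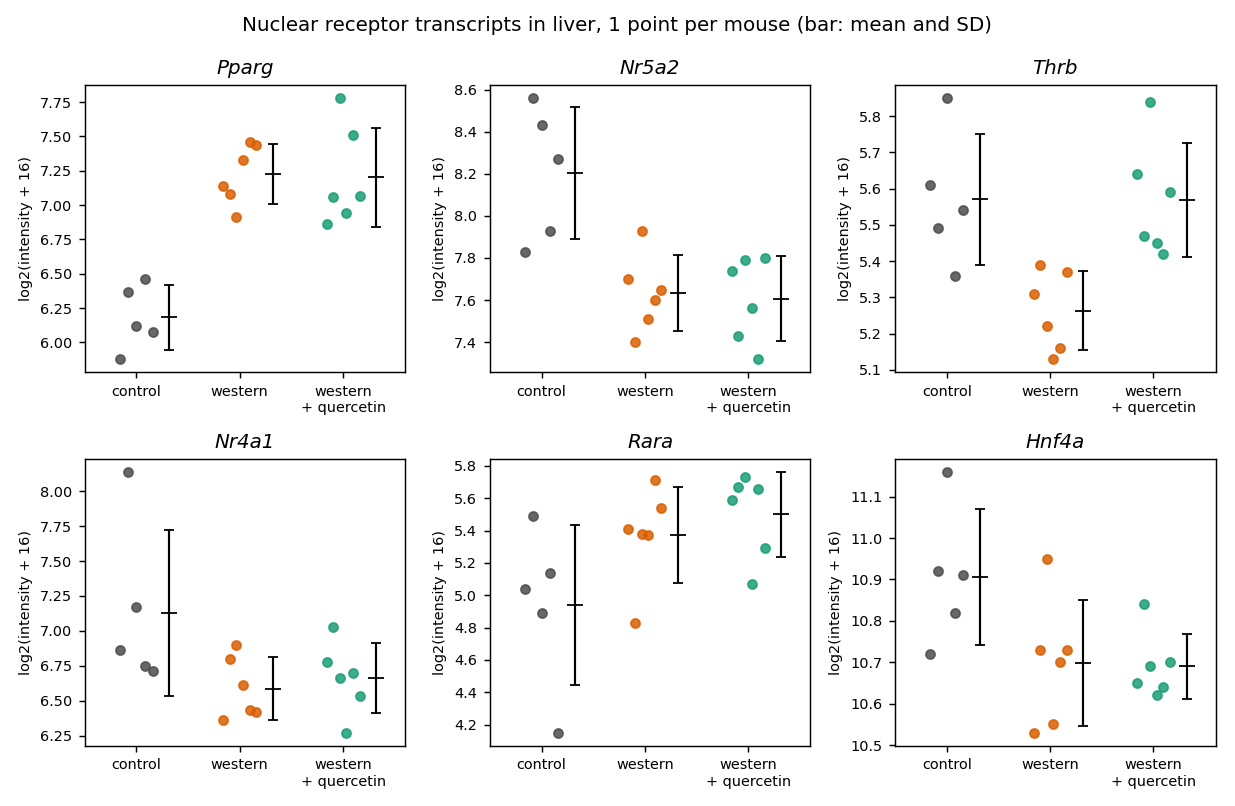
Level of Pparg, Nr5a2, Thrb, Nr4a1, Rara and Hnf4a as log2(intensity + 16) after quantile normalization, 1 point per sample, in the control (n = 5), western (n = 6) and quercetin (n = 6) groups, with the mean and SD as black bars. Pparg lies between 5.88 and 6.46 in the control and at 6.86 or above in both other groups, and Thrb lies at or below 5.39 in the western and at or above 5.42 in the quercetin group.

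The retinoid X receptors, the shared partners of many of these receptors, did not pass in any comparison. Rxra, the main form in hepatocytes, had means of 9.61 ± 0.25 (SD, n = 5), 9.64 ± 0.18 and 9.62 ± 0.14 (SD, n = 6 each) in the control, western and quercetin groups. Its interval for western minus control was -0.21 to 0.26. A dimmer probe set of Rxra differed by 0.25 between the quercetin and western groups (limma, unadjusted p = 0.0212), where the brightest gave -0.02. For Rxrb the control samples read 7.59, 7.76, 7.73, 7.85 and 7.94, the western group ran from 7.36 over 7.69 to 7.79 and the quercetin group from 7.51 over 7.80 to 8.03. These 3 groups overlapped, and the differences were -0.13 for western minus control, 0.14 for quercetin within the Western-style diet and 0.01 for quercetin against control. The first was 0.16 on the intensities as deposited and 0.01 with array medians centred. Rxrg had means of 6.01 ± 0.30 (SD, n = 5), 5.82 ± 0.19 and 5.82 ± 0.23 (SD, n = 6 each). It differed by -0.19 from control in both other groups, and by 0.08 and 0.07 as deposited.

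In the receptors of sterols and bile acids, Nr5a2 fell and the other 3 tested members had differences below 0 that did not pass. Nr5a2 (LRH-1) binds phospholipids and acts on bile acid and cholesterol genes. Its control samples read 7.83, 8.56, 8.43, 7.93 and 8.27, a mean of 8.20 ± 0.32 (SD, n = 5). Western livers ran from 7.40 over 7.63 to 7.93, a mean of 7.63 ± 0.18 (SD, n = 6), and quercetin livers from 7.32 over 7.65 to 7.80, a mean of 7.60 ± 0.20 (SD, n = 6). The highest western mouse reached the range of the lowest control samples, and all quercetin mice lay below every control sample. As deposited the intensities of Nr5a2 were 183 to 348 in the control, 144 to 230 in the western and 145 to 222 in the quercetin group, and there the groups overlapped. Nr5a2 fell by 0.57 on the log2 scale (SE 0.13, interval -0.85 to -0.29; adjusted p = 0.013) in western against control livers, a 1.49-fold decrease. With quercetin it was 1.52-fold lower than in controls (-0.60 ± 0.13, SE; adjusted p = 0.0134), and within the Western-style diet the difference was -0.03 (interval -0.30 to 0.24).

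The call for Nr5a2 depended on the scaling and, among its 4 probe sets taken singly, was made by the brightest alone. It was kept in both comparisons with control when the probe sets of each gene were averaged. The other probe sets gave -0.44 (adjusted p = 0.0702), -0.32 (0.076) and -0.09 (0.691) for western against control, all in the same direction and none passing. For quercetin against control they gave -0.35 (adjusted p = 0.187), -0.15 (0.505) and -0.14 (0.507). In the brightest of them control samples reached down to 7.75 and quercetin mice up to 8.09, so these groups overlapped. The quercetin difference from control was -0.33 as deposited (adjusted p = 0.1) and -0.51 with array medians centred (adjusted p = 0.0608). The western difference was -0.29 on the intensities as deposited (adjusted p = 0.139) and -0.44 with array medians centred (adjusted p = 0.0774). It was also not called among the samples numbered 1 to 3 (-0.60, adjusted p = 0.218) or 4 to 6 (-0.51, adjusted p = 0.123). Leaving out each sample in turn kept the call, with adjusted p from 0.00624 to 0.0413. The actin 3'/5' log2 ratio, which reads how far RNA is degraded, was 0.642 ± 0.0588 (SD, n = 5) in the control, 0.551 ± 0.148 (SD, n = 6) in the western and 0.56 ± 0.0849 (SD, n = 6) in the quercetin group. The western difference of -0.09 had an exact two-sided permutation p of 0.232, while on the deposited intensities it was -0.14 with an exact p of 0.0325. With the ratio from the deposited intensities as a covariate, a setting added after seeing the data, Nr5a2 differed by -0.63 (adjusted p = 0.0669) and Pparg by 0.98 (adjusted p = 0.0235). With the normalized ratio as the covariate both passed.

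**Figure D3:**
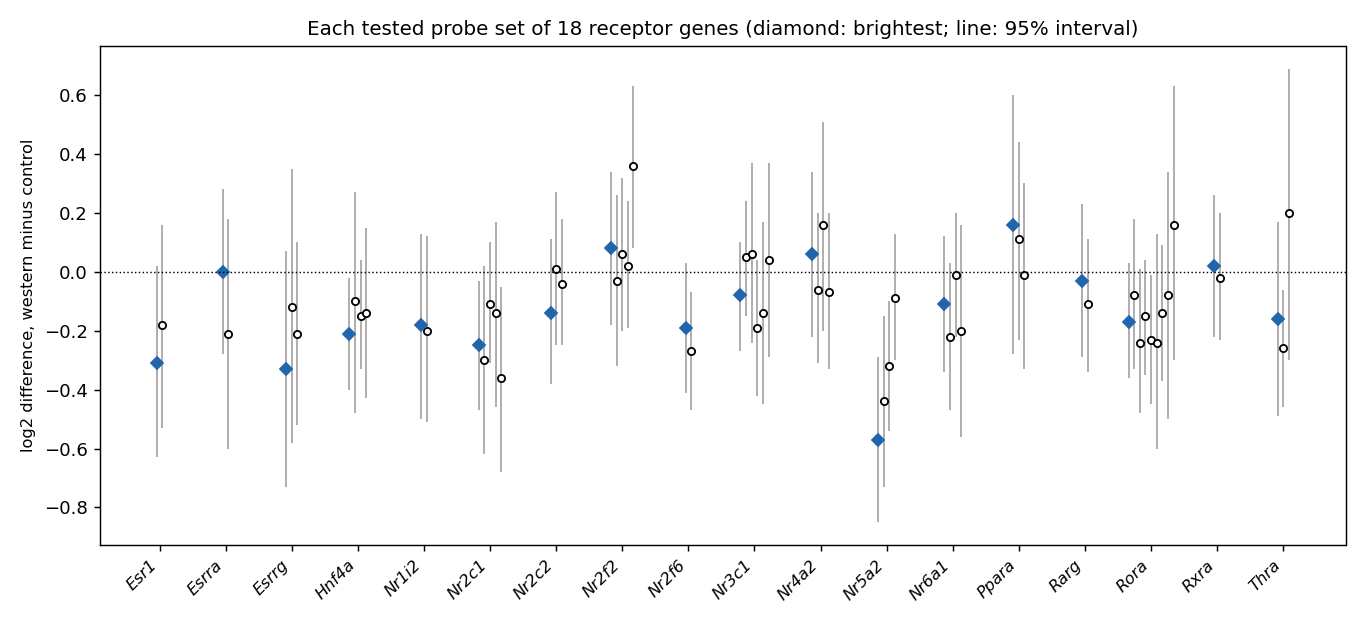
Log2 difference, western minus control, of each tested probe set of the 18 receptor genes with more than 1, with its 95% interval as a line and the brightest probe set of each gene as a diamond. The 4 probe sets of Nr5a2 run from -0.57 to -0.09, and in 9 of the 18 genes the probe sets do not all share a sign.

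Nr1h3 (LXR-alpha), the oxysterol sensor of hepatocytes and macrophages, had control samples at 8.44, 8.49, 8.41, 8.39 and 8.49. Its western livers ran from 8.07 over 8.30 to 8.39 and its quercetin livers from 8.25 over 8.39 to 8.56. The highest western mouse was level with the lowest control sample at this rounding, and the quercetin group spread to both sides. The western difference was -0.18 (interval -0.33 to -0.02; adjusted p = 0.152), and it was 0.10 on the intensities as deposited. Quercetin within the Western-style diet differed by 0.12 (interval -0.03 to 0.26). Of 12 LXR targets 4 rose, 0 fell and 8 did not pass on the Western-style diet, with a median of 0.25, and 4 rose and 0 fell with quercetin against control. The shares of all genes higher were 5.49% and 3.43%. Abcg1 and Abca1, which export cholesterol, rose 1.46-fold and 1.29-fold (adjusted p = 0.00302 and 0.00498). Srebf1, the switch of fatty acid synthesis, rose 1.59-fold, and Abcg5, which moves sterols into bile, 1.43-fold. The 4 genes passed under all 3 scalings in the western comparison. Without control mouse 1 the count of LXR targets that rose was 2, and as deposited it was 7, where 3641 of 13645 genes were higher. Abcg5 also lost its call without control 2 or 3 or western mouse 3, 4 or 6. Within the Western-style diet 0 of 12 passed by limma before or after adjustment, and Smpdl3a and Lpcat3, with the smallest p there, differed by 0.19 and -0.14.

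Nr1h4 (FXR), the bile acid receptor, had means of 9.39 ± 0.24 (SD, n = 5), 9.17 ± 0.24 and 9.21 ± 0.22 (SD, n = 6 each), and its western difference of -0.22 had an interval of -0.50 to 0.06. Nr0b2 (SHP), a repressor without a DNA-binding domain that FXR induces, had means of 9.32 ± 0.45 (SD, n = 5), 8.79 ± 0.48 and 8.83 ± 0.28 (SD, n = 6 each). Its western difference of -0.54 had an interval of -1.01 to -0.07 and did not pass (adjusted p = 0.153). A single western mouse at 7.86 lay well below the others, of which the nearest was at 8.78. Of 11 FXR targets 2 rose, 0 fell and 9 did not pass, with a median of -0.18, beside 5.49% of all genes higher and 3.16% lower. Apoc2, an activator of lipoprotein lipase, rose 1.37-fold (adjusted p = 0.00378) and Abcb4, the phospholipid exporter of bile, 1.36-fold (adjusted p = 0.00707). Fgg, a fibrinogen chain, and Fgfr4, the receptor for the intestinal signal that curbs bile acid synthesis, differed by -0.19 and -0.40 and did not pass. With quercetin against control the counts were also 2, 0 and 9, and 1 target was called without control 1, 2, 3 or 6 or quercetin mouse 1, 2, 3 or 5. With array medians centred 1 rose and 1 fell there. Within the Western-style diet 0 of 11 passed before or after adjustment by limma.

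The xenobiotic receptors did not pass. Nr1i2 (PXR) had means of 8.11 ± 0.32 (SD, n = 5), 7.93 ± 0.16 and 7.99 ± 0.30 (SD, n = 6 each). Nr1i3 (CAR) had 9.24 ± 0.44 (SD, n = 5), 8.84 ± 0.33 and 8.84 ± 0.40 (SD, n = 6 each), with a western difference of -0.40 (interval -0.85 to 0.05; adjusted p = 0.286). Of 12 targets of these receptors 2 rose, 0 fell and 10 did not pass on the Western-style diet, and the counts were the same with quercetin against control. Among all genes 5.49% and 3.43% were higher. Without control mouse 6 the western count was 4, and 5 rose and 0 fell as deposited, where 3641 of 13645 genes were higher. Gstm3, a glutathione transferase, rose 4.15-fold (adjusted p = 0.00108) and Abcc3, an efflux pump, 1.47-fold. Abcb1a and Slco1a4, transporters of drugs, differed by 0.64 and -0.55 and did not pass, though Abcb1a passed on the intensities as deposited (adjusted p = 0.00617). Cyp2b10, the classical CAR target, differed by -0.36 between the western and control groups and by 0.55 between the quercetin and western groups (limma, unadjusted p = 0.0918), without passing.

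Of the retinoic acid receptors, which carry retinoid signals through the same partners, Rara and Rarb had positive differences on both Western-style diets that did not pass. For Rara the control samples read 5.04, 5.49, 4.89, 5.14 and 4.15, the western livers ran from 4.83 over 5.39 to 5.71 and the quercetin livers from 5.07 over 5.63 to 5.73. All groups overlapped, and the control sample at 4.15 was the lowest of all. The signal was low: as deposited the control intensities of Rara were 1.26 to 25. Rara differed from control by 0.43 (interval 0.02 to 0.84; adjusted p = 0.191) in the western and by 0.56 (interval 0.15 to 0.97; adjusted p = 0.106) in the quercetin group. Rarb, which retinoic acid itself induces, had means of 5.46 ± 0.11 (SD, n = 5), 5.74 ± 0.30 and 5.76 ± 0.18 (SD, n = 6 each) and differed by 0.28 and 0.30 (adjusted p = 0.197 and 0.19). Both passed on the intensities as deposited, with 0.58 and 0.51 for western against control (adjusted p = 0.0328 and 0.0234). With array medians centred these were 0.43 and 0.36 and did not pass (adjusted p = 0.15 and 0.118). Rarg had means of 6.28 ± 0.17 (SD, n = 5), 6.25 ± 0.12 and 6.17 ± 0.29 (SD, n = 6 each). It differed from control by -0.03 and -0.11, and by 0.25 and 0.17 as deposited.

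Rora, which binds DNA as a single molecule and takes part in lipid metabolism, had control samples at 8.16, 8.13, 8.14, 8.09 and 7.74. The western livers ran from 7.76 over 7.83 to 8.15 and the quercetin livers from 7.64 over 7.77 to 7.93. All but 1 control sample lay above every quercetin mouse. The quercetin group was lower than control by 0.28 on the log2 scale (-0.28 ± 0.09, SE; interval -0.48 to -0.09; adjusted p = 0.0823), which did not pass. Without control sample 6 the difference was -0.36 and passed (adjusted p = 0.0252), and it also passed with control arrays 4 and 5 counted separately (-0.29, adjusted p = 0.0447). On the intensities as deposited it was -0.00. The western difference was -0.17 (adjusted p = 0.296), and 0.12 on the intensities as deposited. Of 9 probe sets of Rora, all tested, 1 had a sign opposite to the brightest for western against control (0.16). For quercetin against control the 9 ran from -0.34 to 0.15, and none passed when probe sets were tested singly. The next brightest gave -0.08 there (limma, adjusted p = 0.788).

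In the list of retinoic acid receptor targets, with 5 genes tested, Tgm2, a transglutaminase, rose 1.75-fold on the Western-style diet (adjusted p = 0.0271) and Dhrs3, a retinal reductase, was 1.26-fold lower (adjusted p = 0.0214). Dhrs3 did not pass as deposited (-0.07) or with array medians centred (-0.22), and under both of these scalings 2 genes of the list rose and 0 fell. With quercetin against control 1 rose and 1 fell, and 3 rose and 0 fell under both other scalings. Tgm2 did not pass without control mouse 6 or western mouse 1, 3, 4 or 5, and Dhrs3 did not without control mouse 1, 2 or 3. Cyp26a1 and Cyp26b1, which break down retinoic acid, had the smallest p for quercetin within the Western-style diet. Cyp26a1 had means of 5.72 ± 0.36 (SD, n = 5) in the control, 5.63 ± 0.38 (SD, n = 6) in the western and 6.54 ± 0.59 (SD, n = 6) in the quercetin group. It differed by 0.91 between the latter 2 (limma, unadjusted p = 0.00123, adjusted p = 1), and Cyp26b1 by 0.43 (unadjusted p = 0.0368). Lrat, the retinol-esterifying enzyme that also marks stellate cells, rose in the quercetin group against control by 0.65 (adjusted p = 0.0183), beside the rise of stellate cell markers given above. It did not pass without control mouse 3 (adjusted p = 0.0544).

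Thrb, the thyroid hormone receptor that predominates in liver, was the receptor in which the quercetin and western groups did not overlap. Its control samples read 5.61, 5.49, 5.85, 5.36 and 5.54, a mean of 5.57 ± 0.18 (SD, n = 5). Western livers ran from 5.13 over 5.27 to 5.39, a mean of 5.26 ± 0.11 (SD, n = 6). Quercetin livers ran from 5.42 over 5.53 to 5.84, a mean of 5.57 ± 0.16 (SD, n = 6). The western mice were the lowest, with the lowest control sample inside their range, and the quercetin mice matched the control samples in mean. Thrb was higher by 0.31 ± 0.09 (SE; interval 0.12 to 0.50) with quercetin than without it, which is 1.24-fold, and did not pass (limma, unadjusted p = 0.00322, adjusted p = 1). Such a lack of overlap was seen in 18 of 13645 genes (0.132%) and in 1 of 32 receptors (3.12%). Against control Thrb was lower in western livers by 0.31 on the log2 scale (-0.31 ± 0.10, SE; interval -0.51 to -0.11; adjusted p = 0.0521), just outside the threshold, and quercetin livers differed by 0.00 (interval -0.20 to 0.20). These comparisons share the western or the control mice. On the intensities as deposited the western difference was -0.10 (limma, adjusted p = 0.508), and with array medians centred -0.24 (adjusted p = 0.132). Thrb had 1 probe set, so averaging probe sets left its own levels unchanged. The western decrease passed with a pseudocount of 1 (-0.47, adjusted p = 0.0413), when probe sets of a gene were averaged (adjusted p = 0.0445), with the sample number as a block (-0.28, adjusted p = 0.048), with the sets of numbers 1 to 3 and 4 to 6 as a block (-0.29, adjusted p = 0.0356), without control sample 4-5 (-0.36, adjusted p = 0.0335) and without western mouse 2 (-0.33, adjusted p = 0.0411), and over all samples left out in turn its adjusted p ran from 0.0335 to 0.145. The signal was low: as deposited the intensities were 21.5 to 33.6 in the control, 20.6 to 27.2 in the western and 27.1 to 42.3 in the quercetin group, and there the quercetin and western groups overlapped.

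Thra, the other thyroid hormone receptor, had means of 6.31 ± 0.39 (SD, n = 5), 6.15 ± 0.24 and 6.10 ± 0.19 (SD, n = 6 each). It differed by -0.16 and -0.21 from control, and by 0.11 and 0.07 as deposited. Of its 3 probe sets, the dimmer ones gave -0.26 and 0.20 for western against control (limma, adjusted p = 0.113 and 0.703). Of 7 thyroid hormone receptor targets 0 rose, 2 fell and 5 did not pass on the Western-style diet, with a median of 0.19, while 2 rose and 1 fell as deposited. Among all genes 3.16% were lower, and as deposited 3641 of 13645 were higher and 84 lower. Sult1a1, a sulfotransferase, was 1.49-fold lower (adjusted p = 0.00819) and Klf9, a transcription factor, 1.51-fold lower (adjusted p = 0.0374). Klf9 did not pass as deposited (-0.38, adjusted p = 0.0942) or with array medians centred (-0.53, adjusted p = 0.0648), nor without control 2, 3, 4-5 or 6 or western mouse 3, 4 or 5. Sult1a1 differed by 0.26 with quercetin within the Western-style diet (limma, unadjusted p = 0.0425, adjusted p = 1), and with quercetin against control 0 of 7 passed by limma (1 without control mouse 1) and 2 had an unadjusted p under 0.05. Dio1, which activates thyroid hormone, differed by 0.30 and did not pass, though it did as deposited (adjusted p = 0.0137). Vdr, the vitamin D receptor, was dim, at 4.52 ± 0.26 (SD, n = 5), 4.44 ± 0.29 and 4.45 ± 0.21 (SD, n = 6 each), where the limit was 4.564.

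The steroid receptors did not pass. Nr3c1, the glucocorticoid receptor, had the narrowest control spread of the receptors, with means of 8.53 ± 0.04 (SD, n = 5), 8.45 ± 0.11 and 8.52 ± 0.18 (SD, n = 6 each) and a western difference of -0.08 (interval -0.26 to 0.10). Nr3c2, the mineralocorticoid receptor, had means of 6.02 ± 0.21 (SD, n = 5), 6.18 ± 0.23 and 6.07 ± 0.25 (SD, n = 6 each), differed by 0.16 in the western group (adjusted p = 0.534) and passed as deposited (0.42, adjusted p = 0.0343). Esr1, the estrogen receptor of male and female liver, had means of 7.73 ± 0.15 (SD, n = 5), 7.43 ± 0.33 and 7.49 ± 0.30 (SD, n = 6 each) and a western difference of -0.31 (adjusted p = 0.256). Glucocorticoid receptor targets, 13 tested, had 0 rises and 2 falls on the Western-style diet and a median of -0.41, with 1 rise and 1 fall as deposited. Among all genes 3.16% were lower, and as deposited 3641 of 13645 were higher and 84 lower. Tat and Pck1, enzymes of amino acid breakdown and of glucose synthesis, were 1.72-fold and 1.47-fold lower (adjusted p = 0.0253 and 0.0431). Pck1 did not pass as deposited (-0.40, adjusted p = 0.119) or with array medians centred (-0.55, adjusted p = 0.0757). Neither passed without control 2 or 3 or without western mouse 1, and Pck1 passed without western mouse 4 alone. Per1 and Tsc22d3, which glucocorticoids induce, differed by -0.58 and -0.86 without passing. With quercetin against control 0 of 13 passed by limma (1 without quercetin mouse 6), 1 had an unadjusted p under 0.05 and the median was -0.26. Hsd11b1, which regenerates active glucocorticoid in liver and stands in the list of ligand enzymes, fell on both Western-style diets. Its means were 12.15 ± 0.05 (SD, n = 5), 11.41 ± 0.17 and 11.44 ± 0.28 (SD, n = 6 each), and it was 1.66-fold lower in the western group (-0.73 ± 0.12, SE; adjusted p = 0.000982).

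Hnf4a, the constitutive master regulator of hepatocyte genes, had control samples at 10.72, 10.92, 11.16, 10.82 and 10.91. Western livers ran from 10.53 over 10.72 to 10.95 and quercetin livers from 10.62 over 10.67 to 10.84. The groups overlapped, with most mice on both Western-style diets under the control median. The differences from control were -0.21 (interval -0.39 to -0.02; adjusted p = 0.16) and -0.21 (interval -0.40 to -0.03; adjusted p = 0.175), and quercetin within the Western-style diet differed by -0.01 (interval -0.18 to 0.17). All 4 probe sets of Hnf4a had a negative western difference. On the intensities as deposited Hnf4a differed from control by -0.01 in the western and -0.02 in the quercetin group. With array medians centred these differences were -0.16 and -0.20. Of 11 HNF4-alpha targets 0 rose, 2 fell and 9 did not pass in both comparisons with control, beside 3.16% and 1.98% of all genes lower. The direction turned with the scaling: as deposited 1 rose and 2 fell in the western comparison, and 2 rose and 0 fell with quercetin against control, where F7 and Slc10a1 did not pass (adjusted p = 0.149 and 0.0764). With array medians centred 0 rose in either comparison, and 2 and 1 fell. F7, a coagulation factor, and Slc10a1, the bile acid uptake transporter, were 1.48-fold and 1.56-fold lower in the western group (adjusted p = 0.00689 and 0.00744). Apob and Cyp2d22, with the next smallest p, differed by 0.42 and -0.19 and did not pass (limma, adjusted p = 0.0713 and 0.321). Apob passed as deposited (0.54, adjusted p = 0.0144) but not with array medians centred (0.39, adjusted p = 0.164). The western difference was negative in 8 of the 11 targets. With quercetin against control 0 passed without control 3, control 6 or quercetin mouse 5, and 1 passed without control 2 or quercetin mouse 1, 2 or 3. Hnf4g was dim, with means of 4.68 ± 0.31 (SD, n = 5), 4.24 ± 0.17 and 4.20 ± 0.15 (SD, n = 6 each). Esrra, which acts with coactivators on mitochondrial genes, had equal means of 7.31 in all 3 groups (SD 0.29, 0.14 and 0.25). Esrrg, a relative of Esrra, had means of 5.62 ± 0.33 (SD, n = 5), 5.29 ± 0.30 and 5.31 ± 0.40 (SD, n = 6 each). It differed by -0.33 in western against control livers (interval -0.73 to 0.07; adjusted p = 0.328) and passed with the sets of sample numbers 1 to 3 and 4 to 6 as a block (-0.38, adjusted p = 0.0366). The difference of Esrrg was -0.12 as deposited (adjusted p = 0.636) and -0.27 with array medians centred (adjusted p = 0.428). Its signal was low, with deposited intensities of 11.7 to 44.5 over all samples.

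The orphan receptors TR2, TR4, COUP-TF and GCNF did not pass either. Nr2f1 (COUP-TFI) was close to the limit for dim genes, with control samples at 4.83, 4.37, 4.61, 4.71 and 4.48, western livers from 4.63 over 4.88 to 5.19 and quercetin livers from 4.53 over 4.71 to 5.03. The groups overlapped, with the western group placed highest. Its western difference was 0.33 (interval 0.09 to 0.56; adjusted p = 0.0827), which passed without western mouse 2 (0.39, adjusted p = 0.0346) and as deposited (0.41, adjusted p = 0.0288). Within the Western-style diet it was -0.18 with quercetin (interval -0.41 to 0.04). Nr2f6 had control samples at 8.43, 8.65, 8.72, 8.45 and 8.65, western livers from 8.10 over 8.43 to 8.58 and quercetin livers from 8.09 over 8.24 to 8.64. The groups overlapped here as well, and the quercetin group was lower than control by 0.29 on the log2 scale (-0.29 ± 0.11, SE; adjusted p = 0.128), which passed without quercetin mouse 3 (-0.36, adjusted p = 0.0426). That difference was -0.03 as deposited (adjusted p = 0.851) and -0.21 with array medians centred (adjusted p = 0.399). Nr2c1 (TR2) had means of 6.86 ± 0.13 (SD, n = 5), 6.61 ± 0.13 and 6.66 ± 0.22 (SD, n = 6 each) and differed by -0.25 in the western group (interval -0.46 to -0.03; adjusted p = 0.156). It passed with the mean of its probe sets (-0.23, adjusted p = 0.0391), and it was 0.04 as deposited. Nr2c2 (TR4) had means of 7.89 ± 0.27 (SD, n = 5), 7.75 ± 0.14 and 7.76 ± 0.16 (SD, n = 6 each), and Nr6a1 (GCNF) had 5.96 ± 0.26 (SD, n = 5), 5.85 ± 0.16 and 5.79 ± 0.11 (SD, n = 6 each). These differed by -0.14 and -0.11 in western against control livers, and by 0.15 for each as deposited. Nr2f2 (COUP-TFII), which is also made by endothelial and stellate cells, had means of 7.27 ± 0.29 (SD, n = 5), 7.35 ± 0.22 and 7.40 ± 0.08 (SD, n = 6 each). It differed by 0.08 in the western group (interval -0.18 to 0.34) and passed as deposited (0.37, adjusted p = 0.0126).

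Of the NR4A receptors, which are induced within minutes by stimuli and need no known ligand, Nr4a1 (NUR77) had control samples at 6.86, 8.14, 7.17, 6.75 and 6.71. Western livers ran from 6.36 over 6.52 to 6.90 and quercetin livers from 6.27 over 6.68 to 7.03. The control sample at 8.14 was the highest of all, and the groups overlapped. The western difference was -0.54 (interval -0.97 to -0.11; adjusted p = 0.116) and the difference with quercetin against control -0.47 (adjusted p = 0.214). Nr4a2 had means of 5.09 ± 0.11 (SD, n = 5), 5.15 ± 0.26 and 5.09 ± 0.27 (SD, n = 6 each) and a western difference of 0.06 (interval -0.22 to 0.34). Nr4a3 was dim, with means of 4.60 ± 0.35 (SD, n = 5), 4.62 ± 0.34 and 4.44 ± 0.03 (SD, n = 6 each). Of 11 other immediate early genes tested, 2 rose and 0 fell on the Western-style diet, with a median of 0.34, and 3 rose and 0 fell with quercetin against control. The shares of all genes higher were 5.49% and 3.43%. As deposited the counts of higher immediate early genes were 5 and 6, beside 3641 and 3197 of all 13645 genes. Fos rose 2.19-fold (adjusted p = 0.0454) and Ier3 1.62-fold (adjusted p = 0.0256). Fos kept its call without western mouse 5 or 6 and lost it without any other single sample, and Ier3 lost it without control 1, 2 or 6 or western mouse 1, 3 or 5. With quercetin against control 0 were called without control 6 or quercetin mouse 2, and 1 without control 3 or quercetin mouse 1, 3 or 5.

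Coregulators, the proteins that receptors recruit, had 0 rises and 1 fall among 20 tested on the Western-style diet, with a median of -0.02. As deposited 6 rose and 0 fell, with a median of 0.26, beside 3641 of 13645 genes higher and a median of 0.22 for all genes. With quercetin against control 5 rose and 0 fell as deposited, beside 3197 of all genes higher. With array medians centred 0 passed in either comparison. Ppargc1b (PGC-1-beta), a coactivator of lipid and mitochondrial genes, was 1.38-fold lower (-0.47 ± 0.13, SE; adjusted p = 0.029), a call that was lost as deposited (-0.19, adjusted p = 0.315) and with array medians centred (-0.34, adjusted p = 0.156), and without control 2, 4-5 or 6 or western mouse 1 or 3. Its relative Ppargc1a differed by -0.42 (adjusted p = 0.0589) and Lpin1, a phosphatidate phosphatase that acts with it, by -1.22 ± 0.39 (SE; adjusted p = 0.0609). Lpin1 had wide spreads, with SD of 0.56 (n = 5), 0.47 and 1.01 (n = 6 each) in the control, western and quercetin groups. With quercetin against control 0 of 20 passed by limma (2 without control mouse 1, 1 without quercetin mouse 6) and 2 had an unadjusted p under 0.05, and within the Western-style diet 0 of 20 passed before or after adjustment. Of 15 enzymes and carriers of receptor ligands 0 rose and 2 fell in both comparisons with control, namely Hsd11b1 and Dhrs3, beside 3.16% and 1.98% of all genes lower. As deposited 3 rose and 1 fell in the western comparison, and 2 rose and 1 fell with quercetin against control. With array medians centred the counts were 0 and 1, and 1 and 1, where Cyp26a1 rose (0.89, adjusted p = 0.0351). The call of Dhrs3 was lost in the quercetin comparison without control 1, 2 or 3 or quercetin mouse 2, 3 or 5. Cyp17a1, of steroid synthesis, differed by -0.82 on the Western-style diet and did not pass (adjusted p = 0.11). Of 4 further nuclear receptors tested 0 passed by limma before or after adjustment, and Nr1d1 and Nr1d2 differed by -0.46 and 0.07 in the western group.

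**Figure D4:**
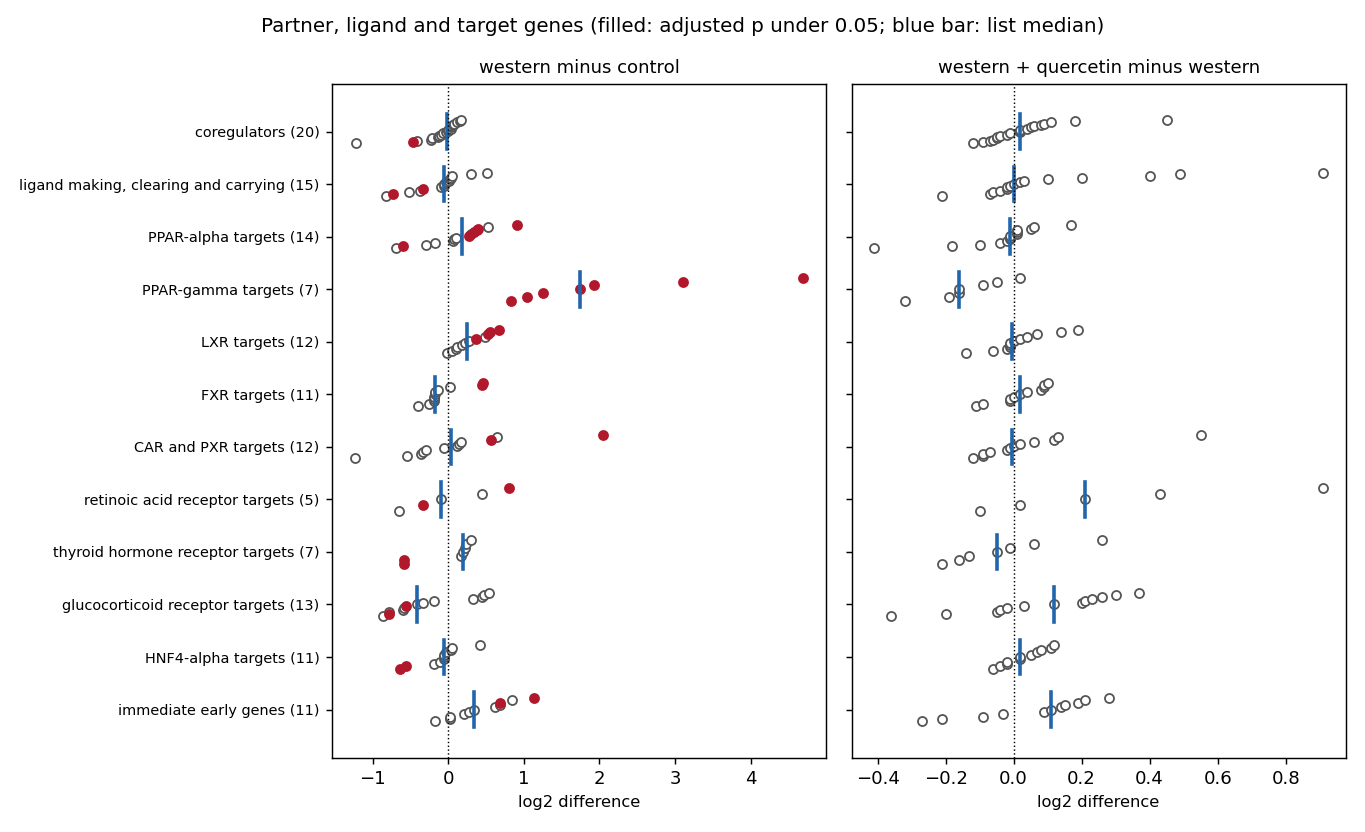
Log2 difference of each tested gene in 12 lists of coregulators, ligand enzymes, receptor targets and immediate early genes (number tested in brackets), for western minus control on the left and western with quercetin minus western on the right, on different axes. Filled points passed an adjusted p of 0.05 and the blue bar is the list's median, which for the PPAR-gamma targets is 1.74 on the left. No point is filled on the right.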

How the data were processed

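Liver RNA of 18 mice was read on Affymetrix Mouse430_2 arrays. The authors' deposited values are linear intensity values, 1 per probe set. How they were made is not given in the sources used here. Of 45101 probe sets 64 controls were set aside, and the other 45037 were converted to log2(intensity + 16) and quantile normalized. 34945 were paired with 1 symbol, 932 with several and 9160 with none. The brightest stood for each of 18193 genes, and the 4548 with a mean under the 25th percentile (4.564) were left out as dim. Limma 3.58.1 in R 4.3.3 (lmFit, contrasts, eBayes) was fitted with 1 mean per group to all 17 samples, and two-sided p values were adjusted by Benjamini-Hochberg over 13645 genes in each of 3 comparisons. The calling was tested on simulated data. Mice were the replicates, cages were not modelled, and the number of mice limits precision.

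Receptors and lists were chosen with earlier results of these data known. For receptors that changed and the 6 with the smallest p in each comparison, every control sample is given. Their western and quercetin groups are given by the lowest, median and highest level. Of each pathway list up to 4 genes with the smallest p for western against control and 2 for quercetin within western could be named, and of each cell type list 3. Promoters are RefSeq's (GRCm38.p6). Plots used matplotlib 3.10.9 (Python 3.11.15). Alternatives covered scaling, pseudocount, dim filter, probe set choice, actin covariate, sample blocks, subsets and leaving out each sample. The same-numbered samples' deviations correlated from -0.26 to 0.32. In the 3 comparisons 4 of 5, 4 of 6 and 4 of 5 of these correlations were over 0.1. The labels give no pairing, and the numbers were not taken as pairs in the main fit.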

Additional observations from a re-analysis of the deposited data

Results flagged for a closer look

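In 108 checks of single samples within a group, 7 values of receptor genes lay apart from the rest of their group by Dixon's criterion. Chance gives such a value in about 1 of 20 groups. Nr0b2 was 7.86 in western mouse 5, where the nearest mouse had 8.78, and 8.30 in quercetin mouse 2, where the nearest had 8.78. Rora was 7.74 in control mouse 6, where the nearest sample had 8.09. Esr1 was 6.79 in western mouse 1, against 7.39 for the nearest. Nr3c1 was 8.23 in western mouse 3, against 8.46. Hnf4a was 10.84 in quercetin mouse 2, above the nearest at 10.70. Nr4a3, a dim gene that was not tested, was 5.20 in control mouse 6, above the nearest at 4.58. Control mouse 6 and quercetin mouse 2 each account for 2 of the 7 values.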

How the results depend on the processing

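Of 904, 936 and 904 values of the receptors under other settings (western against control, quercetin within the Western-style diet, quercetin against control), 881, 936 and 889 kept their side of the threshold and 0 called values reversed. Uncalled values near 0 changed sign 67, 121 and 81 times and are not counted as reversals. For western against control, where 2 receptors passed, 6 passed as deposited, 1 with array medians centred, 4 with the mean of probe sets, 4 with the number sets 1 to 3 and 4 to 6 as a block, 0 within numbers 1 to 3 and 1 within 4 to 6. With the deposited actin ratio as a covariate, a setting added after seeing the data, 1 passed. For quercetin against control the count was 2, and 4 as deposited, 1 with medians centred, 1 within numbers 1 to 3, 0 within 4 to 6 and 1 with the deposited actin ratio. Leaving out single samples gave 2 to 4 receptors for western against control (4 without western mouse 2) and 2 to 3 for quercetin against control (3 without control mouse 6 or without quercetin mouse 3). All genes called, 1180 for western against control, were 3725 as deposited, 729 with the normalized and 227 with the deposited actin ratio as a covariate, 88 within numbers 1 to 3, 296 within 4 to 6, and 748 to 1394 leaving out single samples (748 without western mouse 4, 773 without control 6, 784 without western mouse 5). For quercetin against control, with 738, they were 3255 as deposited, 466 with the fit limited to the groups compared, 481 and 155 with these covariates, 224 and 32 within the number sets, and 460 to 949 leaving out single samples (460 without control 6, 479 without quercetin mouse 2, 481 without quercetin mouse 5). The cause of these shifts was not tested. The actin ratio differed by -0.14 (exact p = 0.0325) and -0.13 (exact p = 0.0195) from control in the western and quercetin groups as deposited, against -0.09 and -0.08 after normalization. With each number as a replicate block 3, 0 and 2 receptors and 1143, 0 and 717 genes passed in the 3 comparisons, and Thrb passed for western against control (-0.28, adjusted p = 0.048). The numbers are no pairing in the labels. Quercetin within the Western-style diet had 0 receptors called under every setting run.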
